A study of Mus musculus with 8 samples.

Results

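Type 2 immunity is the branch of the immune response that answers worms and allergens and helps to repair barrier tissue, and 8 of its genes were followed here across the cells of the mouse distal colon. Il4, Il5, Il13 and Il9 encode its cytokines, Gata3 the transcription factor that drives their expression, Il17rb the receptor chain for the tuft cell cytokine IL-25, and Il4ra and Il13ra1 the receptor chains through which IL-4 and IL-13 act. They were taken by gene symbol from the 31053 genes of the deposited matrix, and each symbol matched 1 row. The matrix held 53080 cells from 8 mice of 8 weeks of age, profiled with 10x Chromium 3′ libraries made on 1 day. The KO-labelled mice (mice 2, 3, 6 and 7) were Vil1::Cre;Spry2-f/f animals, in which Cre under the Villin promoter cuts the floxed Spry2 gene in intestinal epithelium. The WT-labelled mice (mice 1, 4, 5 and 8) were Spry2-f/f littermates without Cre, so both groups carried the floxed alleles. Lymphocytes and stromal cells are not targets of that promoter, and the design asks here how the type 2 genes of the colon stand when the epithelial gene of Sprouty2 is targeted, a protein that restrains signalling by receptor tyrosine kinases.

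In this arm of immunity, tuft cells, fibroblasts and other barrier cells release the alarmins IL-25, IL-33 and TSLP. Group 2 innate lymphoid cells (ILC2), which carry the matching receptors but no rearranged antigen receptor, and T helper 2 cells then secrete IL-4, IL-5, IL-9 and IL-13. IL-5 serves eosinophils and some B cells, IL-9 mast cells and ILC2, and IL-4 acts on B cells, T cells and macrophages. IL-13 reaches epithelium and stroma through IL-4Rα paired with IL-13Rα1, and in the gut it drives mucus secretion and tuft cell expansion through the transcription factor STAT6.

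Il5, Il13 and Il4 lie together in the type 2 cytokine locus on chromosome 11 (GRCm38, GENCODE M21). Il4 spans 53602982 to 53618669 and Il13 spans 53631324 to 53634702, both on the minus strand, with their starts 16.0 kb apart. Il5 spans 53720794 to 53725106 on the plus strand and starts 86.1 kb from the start of Il13, with Rad50, a DNA repair gene, between them at 53649519 to 53707319. Il9 is on chromosome 13 (56479277 to 56482246, minus strand), Gata3 on chromosome 2 (9857078 to 9890034, minus strand), Il17rb on chromosome 14 (29996135 to 30008896, minus strand), Il4ra on chromosome 7 (125552120 to 125579474, plus strand) and Il13ra1 on chromosome X (36112110 to 36171259, plus strand). The promoters of the 3 locus cytokines are shown because GATA3 binds GATA-type sequences and these genes were detected in the same cells. They run from 250 bases before to 50 bases after the start (RefSeq, GRCm38.p6), 5′ to 3′ on the strand of the gene, and the capitals mark a 6-base GATA-type match.
The Il5 window is chr11:53720544-53720843 on the plus strand, the Il13 window chr11:53634653-53634952 and the Il4 window chr11:53618616-53618915, both on the minus strand.
Il5: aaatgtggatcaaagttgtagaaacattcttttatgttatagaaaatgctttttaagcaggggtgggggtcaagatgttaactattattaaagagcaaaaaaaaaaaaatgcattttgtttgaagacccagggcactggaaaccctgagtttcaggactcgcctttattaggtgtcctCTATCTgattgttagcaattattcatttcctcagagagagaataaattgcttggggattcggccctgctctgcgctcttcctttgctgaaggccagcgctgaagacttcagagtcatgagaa
Il13: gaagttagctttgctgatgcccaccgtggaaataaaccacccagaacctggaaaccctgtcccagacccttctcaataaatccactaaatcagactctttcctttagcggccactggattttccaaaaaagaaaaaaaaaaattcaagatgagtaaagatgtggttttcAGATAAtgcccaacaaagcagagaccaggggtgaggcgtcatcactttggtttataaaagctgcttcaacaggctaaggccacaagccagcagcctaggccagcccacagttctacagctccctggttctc
Il4: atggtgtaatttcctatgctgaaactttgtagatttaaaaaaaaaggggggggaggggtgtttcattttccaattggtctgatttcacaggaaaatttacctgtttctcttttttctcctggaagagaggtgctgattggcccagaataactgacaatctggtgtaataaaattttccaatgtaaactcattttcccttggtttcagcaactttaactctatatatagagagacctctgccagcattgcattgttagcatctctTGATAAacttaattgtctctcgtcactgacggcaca
The search on both strands took 4 spellings, of which the first was AGATAA, the next was spelled AGATAG, another was spelled TGATAA, and the last was spelled TGATAG. The match began 72 bases before the start in Il5, where it reads on the reverse strand, 81 bases before it in Il13 and 15 bases after it in Il4. Of the 8 genes, 4 had a match (Gata3 the other), and so did 9778 of 32851 mouse promoters of this length (29.8%), so a match is common in promoters generally. The Gata3 window, from 9878551 to 9878850, lies inside the GENCODE span of the gene and does not hold its GENCODE start.

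Cells named ILC2 held most of the type 2 cytokine transcripts. The names were made from the same cells and genes, so levels between cell types are descriptions with no test. The authors' annotation named 503 cells ILC2 within a T cell class of 5434 cells in 9 subtypes, leaving out the cells they named doublets (375 in the T cell class and 1316 in all). A UMI, or unique molecular identifier, marks 1 captured RNA molecule. Of the Il13 UMIs, 1142 of 1242 were in ILC2 (91.9%, in 189 cells), and of those of Il5, 281 of 311 (90.4%, in 96 cells). Of the 140 Il4 UMIs, 109 were in ILC2 (77.9%, in 87 cells). Il9 was at the edge of detection, with 8 UMIs in all, every one in a single ILC2 of KO-labelled mouse 3.

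Most markers of ILC2 were found in the cells of that name, and as the name was made from the same cells and genes, they do not test it. Rora, a transcription factor ILC2 need, had a UMI in 85.7% of the 503 cells, Gata3 in 82.5%, Id2 in 70.4%, the IL-33 receptor Il1rl1 in 59.0%, the repair factor Areg in 46.9%, Klrg1 in 40.6% and Il17rb in 38.2%. The prostaglandin synthase Hpgds had one in 4.57%, and Ptgdr2, which marks ILC2 of several tissues, in 0 of 503 cells, which allows a share of cells with a UMI of up to 0.596% and sets no limit on cells that express it below detection. The T cell receptor complex genes Cd3e, Cd3d and Cd3g had a UMI in 2.19, 4.57 and 12.9%, and Trac in 4.57%. The β-chain constant genes Trbc1 and Trbc2 had one in 71.2% and 63.4%. The summed level of the 9 ILC2 markers was 3893 to 5441 CPM under the KO label and 4364 to 5599 CPM under the WT label. None of the 4 tuft cell markers had a UMI, and the epithelial keratin Krt8 had a UMI in 21.3%.

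Some of the cells went against the name ILC2. A group of 10 ILC2-annotated cells (1.99%) held 2 or more UMIs of the mast cell and basophil genes Cpa3, Mcpt1, Mcpt2, Fcer1a, Mcpt8 and Cd200r3, a limit chosen after seeing the data. All 10 had the mast cell protease Cpa3, 9 of them had the basophil protease Mcpt8, and they held 0 UMIs of Gata3, Il17rb, Il5, Areg and Cd3e. The other 493 cells held 0 UMIs of Cpa3, Mcpt1, Mcpt2, Fcer1a and Mcpt8, and 84.2% of them had Gata3. The 10 cells carried 53 Il13 UMIs (4.64% of the ILC2 total, in 8 cells) and 5 Il4 UMIs. They numbered 0, 1, 1 and 2 in KO-labelled mice 2, 3, 6 and 7, against 1, 1, 3 and 1 in WT-labelled mice 1, 4, 5 and 8. Values below include them, and the Il13 levels without them are given beside the result. The ILC2-annotated cells also held Il17a, a cytokine gene of another programme. It averaged 625 ± 960 CPM under the KO label and 548 ± 495 CPM under the WT label (SD, n = 4 each), against 978 and 644 CPM of Il13. The cells that carried Il17a were not examined further.

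Depth set how well each mouse could be read. ILC2 numbered 20, 38, 92 and 178 in KO-labelled mice 2, 3, 6 and 7, against 39, 56, 58 and 22 in WT-labelled mice 1, 4, 5 and 8. Their summed UMIs ranged from 65242 to 442859 per mouse, with medians of 2413.5 to 3645.5 UMIs per cell in KO-labelled and 2624 to 3098 in WT-labelled mice. Levels are given as CPM, the UMIs of a gene scaled to a library of 1e+06 UMIs, with mitochondrial UMIs counted in the total. Spry2 in the epithelium averaged 22.2 ± 18.2 CPM under the KO label and 23.5 ± 11.6 CPM under the WT label (SD, n = 4 each), and these 3′ counts do not tell the labels apart. The labels do not name the floxed exons, so the counted 3′ end may lie outside the deleted part, and these counts then check neither the deletion nor the labels. The libraries also fell into mice 1 to 4, with median mitochondrial shares of 52.2 to 72.9% in the epithelium, and mice 5 to 8, with 13.9 to 34.0%, each with 2 mice of either label. Some 719 cells shared a barcode with another library, 61 of them in the T cell class and 7 in ILC2.

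**Figure D1:**
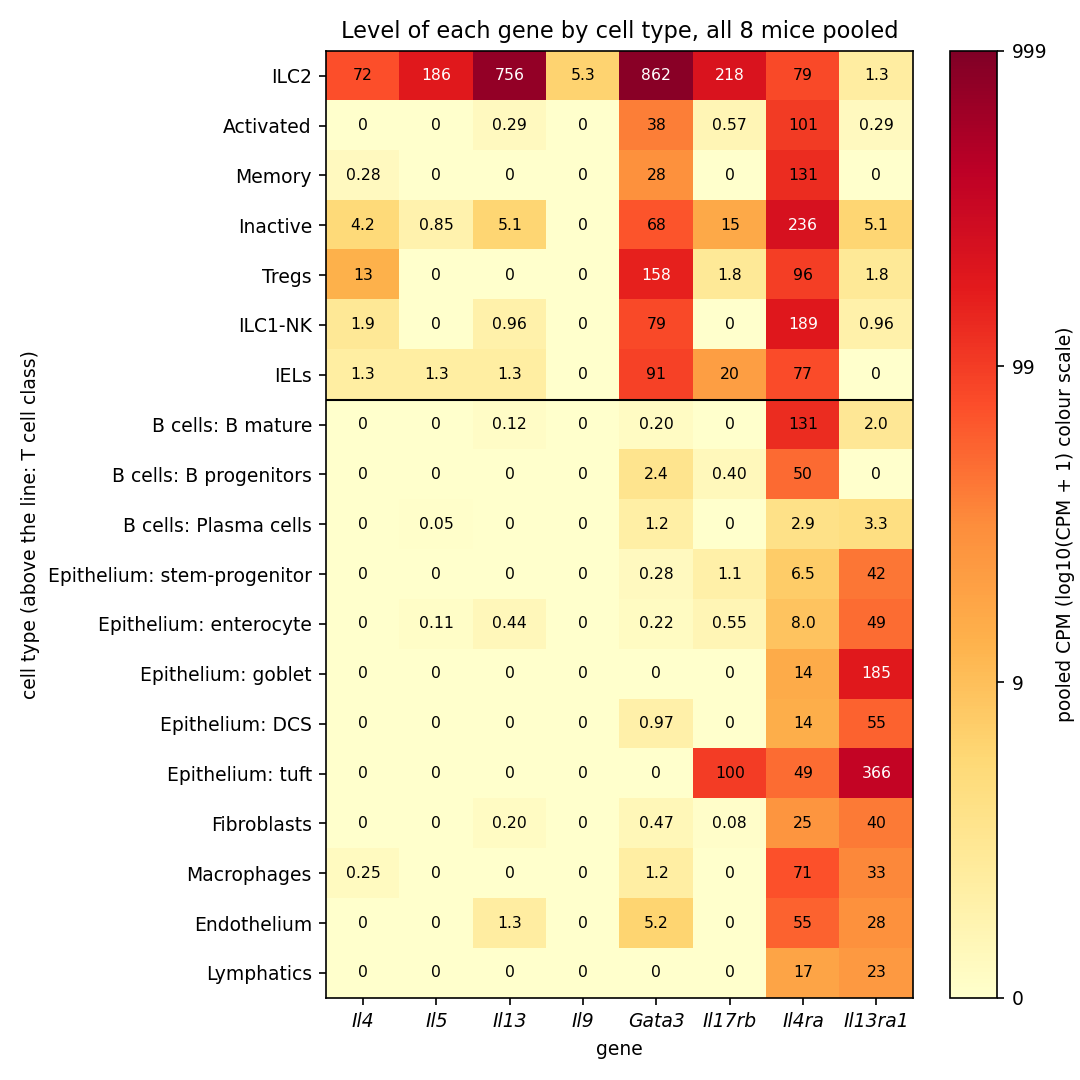
Level of each of the 8 genes (columns) in each cell type (rows, T cell class above the line), as CPM of all cells of the 8 mice pooled on a log colour scale. Il5 and Il13 reach 186 and 756 CPM in ILC2, Gata3 extends to regulatory T cells at 158 CPM, Il4ra spreads over lymphocytes, and Il13ra1 peaks in tuft cells at 366 CPM.

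The level of Il13 in ILC2 was uneven between mice. As CPM of the summed ILC2 of a mouse, Il13 stood at 206, 2510, 352 and 842 in KO-labelled mice 2, 3, 6 and 7, against 513, 405, 816 and 843 in WT-labelled mice 1, 4, 5 and 8. The highest and the lowest value both belonged to KO-labelled mice, and the groups overlapped. Means were 978 ± 1057 CPM under the KO label and 644 ± 219 CPM under the WT label (SD, n = 4 each; two-sided exact permutation p = 0.857, where the smallest p possible is 0.029). The log2 fold change of KO-labelled over WT-labelled mice was 0.59 ± 0.54 (SE; 95% interval −0.57 to 1.75; adjusted p = 0.9998 by edgeR's quasi-likelihood test with Benjamini-Hochberg adjustment). Without KO-labelled mouse 3 it was −0.33. Without the 10 cells with mast cell and basophil genes it was 0.75, with Il13 at 206, 2589, 352 and 835 CPM in KO-labelled mice 2, 3, 6 and 7, against 487, 408, 739 and 706 CPM in WT-labelled mice 1, 4, 5 and 8. Those cells supplied 23.6% of the Il13 UMIs of WT-labelled mouse 8 and 15.5% of those of WT-labelled mouse 5.

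Il5, the eosinophil growth factor, was set apart by 1 mouse. It reached 132, 809, 88.7 and 92.6 CPM in ILC2 of KO-labelled mice 2, 3, 6 and 7, against 82.4, 250, 232 and 138 CPM in WT-labelled mice 1, 4, 5 and 8. KO-labelled mouse 3 stood above all others, and the remaining KO-labelled mice lay within the range of the WT-labelled ones. Means were 281 ± 353 CPM under the KO label and 176 ± 79.2 CPM under the WT label (SD, n = 4 each; two-sided exact permutation p = 0.857). The log2 fold change was 0.45 ± 0.64 (SE; 95% interval −0.92 to 1.82), with an adjusted p of 0.9998 in edgeR's test, and −0.91 without KO-labelled mouse 3.

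Il4 was the steadiest of the cytokines in ILC2, although it rested on 4 to 33 UMIs per mouse. It stood at 58.8, 67.4, 68.7 and 74.5 CPM in KO-labelled mice 2, 3, 6 and 7, against 54.9, 65.6, 78.9 and 123 CPM in WT-labelled mice 1, 4, 5 and 8. All KO-labelled values lay inside the WT-labelled range, with means of 67.3 ± 6.502 CPM under the KO label and 80.5 ± 29.7 CPM under the WT label (SD, n = 4 each; two-sided exact permutation p = 0.571). Il4 was too low in ILC2 for the fit across genes. The 8 Il9 UMIs came to 67.4 CPM in KO-labelled mouse 3 and 0 in the other 7 mice.

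Gata3, the factor that sets ILC2 identity, varied less between mice than Il13 or Il5. It stood at 558, 901, 787 and 915 CPM in ILC2 of KO-labelled mice 2, 3, 6 and 7, against 1007, 864, 963 and 613 CPM in WT-labelled mice 1, 4, 5 and 8. The groups overlapped, with means of 790 ± 165 CPM under the KO label and 862 ± 176 CPM under the WT label (SD, n = 4 each). The log2 fold change was −0.12 ± 0.23 (SE; 95% interval −0.61 to 0.36; adjusted p = 0.9998 in edgeR's test).

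Il17rb, which lets ILC2 answer IL-25, spread widely under both labels. It reached 499.5, 413, 143 and 106 CPM in ILC2 of KO-labelled mice 2, 3, 6 and 7, against 504, 262, 168 and 291 CPM in WT-labelled mice 1, 4, 5 and 8. Both groups spread over a similar range, with means of 290 ± 195 CPM under the KO label and 306 ± 142 CPM under the WT label (SD, n = 4 each) and a log2 fold change of −0.22 ± 0.47 (SE; 95% interval −1.23 to 0.79; adjusted p = 0.9998 in edgeR's test). The share of ILC2 with an Il17rb UMI was 57.2 ± 11.8% in the mice numbered 1 to 4, against 35.8 ± 8.91% in those numbered 5 to 8 (SD over 4 mice), and the ranges did not overlap. At 1000 UMIs per cell the shares were 35.2 ± 11.9% and 19.5 ± 6.56% for the same sets of mice, and the ranges overlapped.

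**Figure D2:**
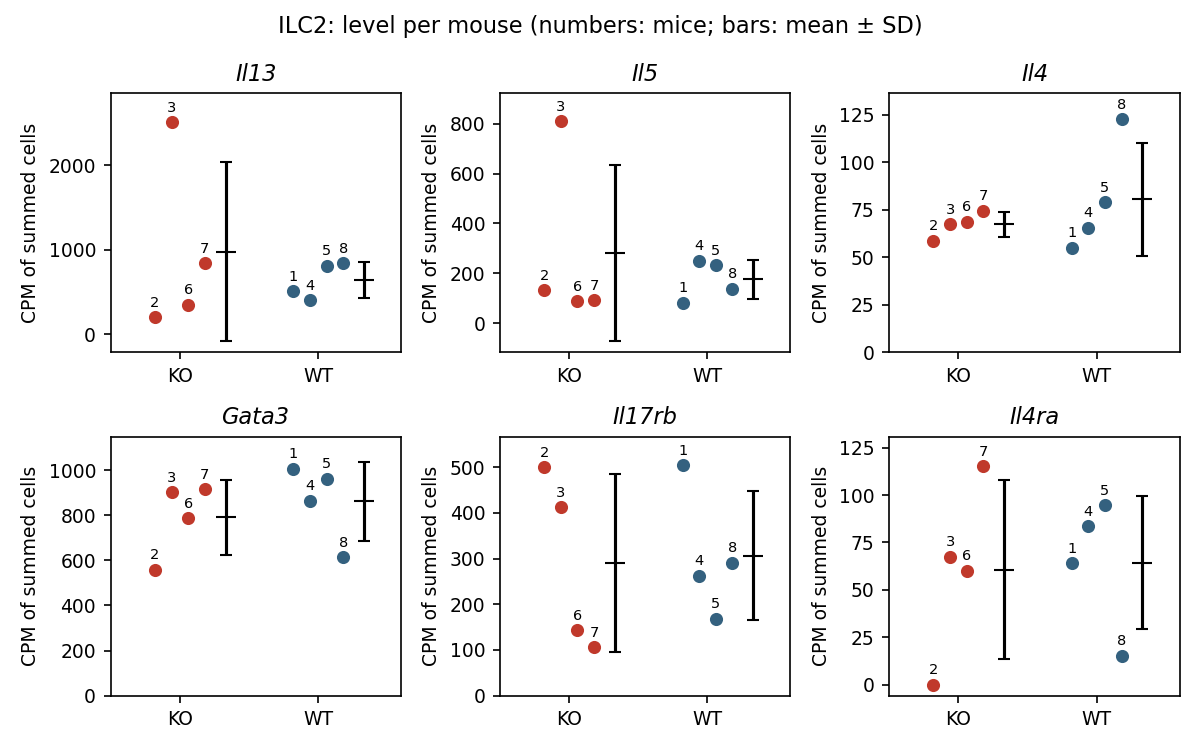
Level per mouse of Il13, Il5, Il4, Gata3, Il17rb and Il4ra in ILC2, as CPM of the summed cells on linear axes, with KO-labelled mice left of WT-labelled mice (points: mice with their numbers, bars: mean ± SD, n = 4 each). KO-labelled mouse 3 stands alone at 2510 CPM of Il13 and 809 CPM of Il5, and the groups overlap in every panel.

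None of the 4 genes measured well enough in ILC2 passed the test (adjusted p under 0.05), beside 0 of 2162 genes tested there (0%). DESeq2 also called 0 of these genes, and 94 of the 2162 genes had an unadjusted p under 0.05. Within mice 1 to 4, the means of the 2 mice per label were 1358 CPM of Il13 under the KO label and 459 CPM under the WT label (log2 ratio 1.54), while within mice 5 to 8 they were 597 CPM under the KO label and 829 CPM under the WT label (−0.47). Il5 differed in the same way, with 470 CPM under the KO label and 166 CPM under the WT label among mice 1 to 4 (1.45), and with 90.6 CPM under the KO label and 185 CPM under the WT label among mice 5 to 8 (−0.95). The direction thus turned between the library groups for both cytokines, and the larger value of each first pair rested on mouse 3.

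A few cells carried most of the cytokine transcripts. In all, 17 ILC2 held 50% of the Il13 UMIs and 14 held 50% of the Il5 UMIs, against 33 for Il4, 54 for Il17rb and 105 for Gata3. Cells with 20 or more Il13 UMIs numbered 11 and held 483 of the 1142 (42.3%). Of these, 4 were from KO-labelled mouse 3 and 5 from KO-labelled mouse 7, against 2 from WT-labelled mouse 5, 1 of which carried mast cell and basophil genes. The highest cell, in KO-labelled mouse 3, had 120 Il13 UMIs and 49 Il5 UMIs among 3694, which is 40.3% of the Il13 and 51.0% of the Il5 of that mouse. The Il9-positive cell of the same mouse, with 4783 UMIs in all, held 8 of Il9, 53 of Il13, 10 of Il5, 56 of Areg and 6 of Gata3. In contrast, no ILC2 had more than 3 UMIs of Il4, 7 of Il17rb or 15 of Gata3.

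**Figure D3:**
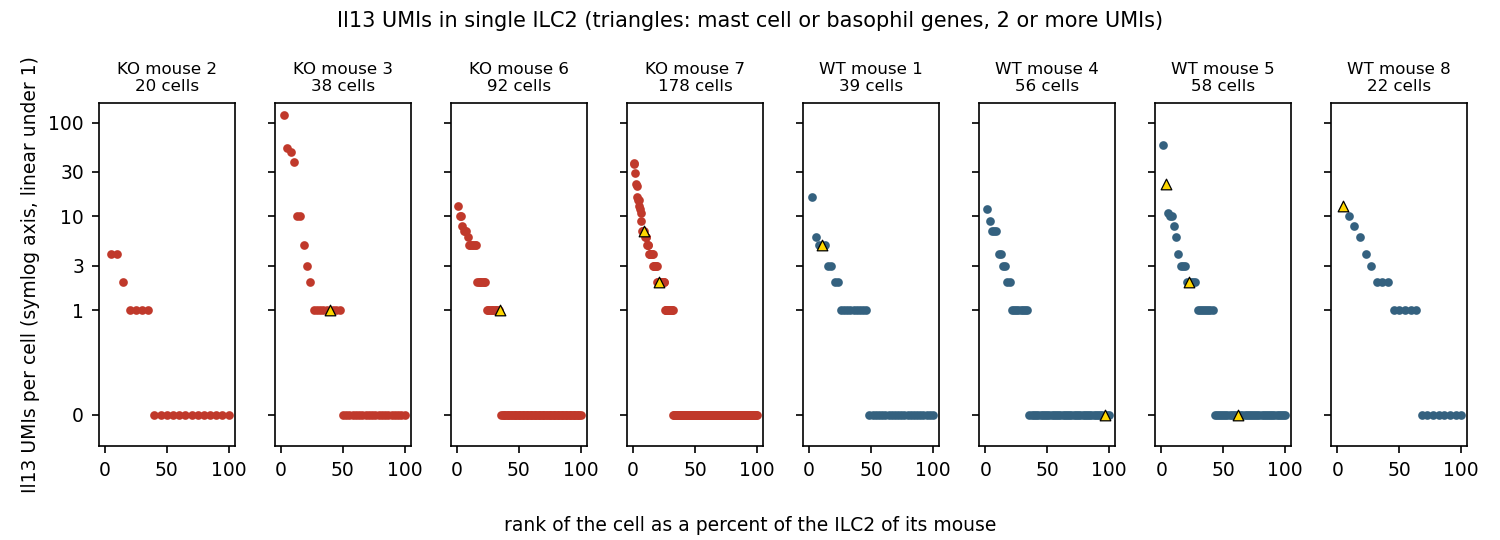
Il13 UMIs in each ILC2 (y axis, logarithmic above 1 and linear below it) against the rank of the cell as a percent of the ILC2 of its mouse, 1 panel per mouse, KO-labelled mice left of WT-labelled mice; triangles mark the 10 cells with 2 or more UMIs of mast cell or basophil genes. Most cells lie at 0 in 7 of the 8 mice, and KO-labelled mouse 3 holds the highest cell at 120 UMIs.

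The share of ILC2 with a cytokine UMI varied less than the level. Il13 was detected in 35.0, 47.4, 34.8 and 32.0% of ILC2 in KO-labelled mice 2, 3, 6 and 7, against 46.2, 33.9, 41.4 and 63.6% in WT-labelled mice 1, 4, 5 and 8. The groups overlapped, with means of 37.3 ± 6.85% under the KO label and 46.3 ± 12.6% under the WT label (SD, n = 4 each; two-sided exact permutation p = 0.314). As a level of free RNA, Il13 had a UMI in 0.0204% of B cells, whose medians per mouse lay between 1517 and 2302 UMIs. Detection follows depth, so cells were also thinned to 1000 UMIs, which kept 490 of the 503 ILC2. Il13 was then seen in 22.7 ± 3.57% of KO-labelled and 23.6 ± 9.19% of WT-labelled ILC2 (exact permutation p = 0.857), and Il5 in 8.27 ± 9.37% of KO-labelled and 11.4 ± 4.62% of WT-labelled ILC2 (exact permutation p = 0.543). Il4 was seen in 6.13 ± 1.17% of KO-labelled and 9.55 ± 4.18% of WT-labelled ILC2 (exact permutation p = 0.171), Gata3 in 50.9 ± 13.0% of KO-labelled and 55.5 ± 7.42% of WT-labelled ILC2 (exact permutation p = 0.600), and Il17rb in 27.1 ± 15.5% of KO-labelled and 27.6 ± 10.3% of WT-labelled ILC2 (exact permutation p = 0.971; SD, n = 4 each, two-sided).

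At least 1 of the 4 cytokines was detected in 262 of the 503 ILC2 (52.1%), 156 of 328 in KO-labelled mice (47.6%) and 106 of 175 in WT-labelled mice (60.6%). By mouse the shares were 45.0, 63.2, 48.9 and 43.8% in KO-labelled mice 2, 3, 6 and 7, against 59.0, 55.4, 62.1 and 72.7% in WT-labelled mice 1, 4, 5 and 8. Mouse 3 is the KO-labelled mouse that lies inside the WT-labelled range, and the other KO-labelled mice lie below it. These shares were not taken at matched depth, and they include the 10 cells with mast cell and basophil genes. KO-labelled mouse 7 supplied 178 of the 328 KO-labelled cells and had the lowest median depth of the 8 mice, 2413.5 UMIs. The shares therefore do not separate detection from the number of cells that make a cytokine. Il13 alone was the most frequent pattern, with 101 cells (60 KO-labelled and 41 WT-labelled). It was followed by Il5 with Il13 in 40 cells (25 and 15 by the same labels), Il4 with Il13 in 34 (22 and 12), Il5 alone in 33 (17 and 16) and Il4 alone in 31 (21 and 10). All of Il4, Il5 and Il13 were seen in 13 cells, 6 of them KO-labelled and 7 WT-labelled.

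**Figure D4:**
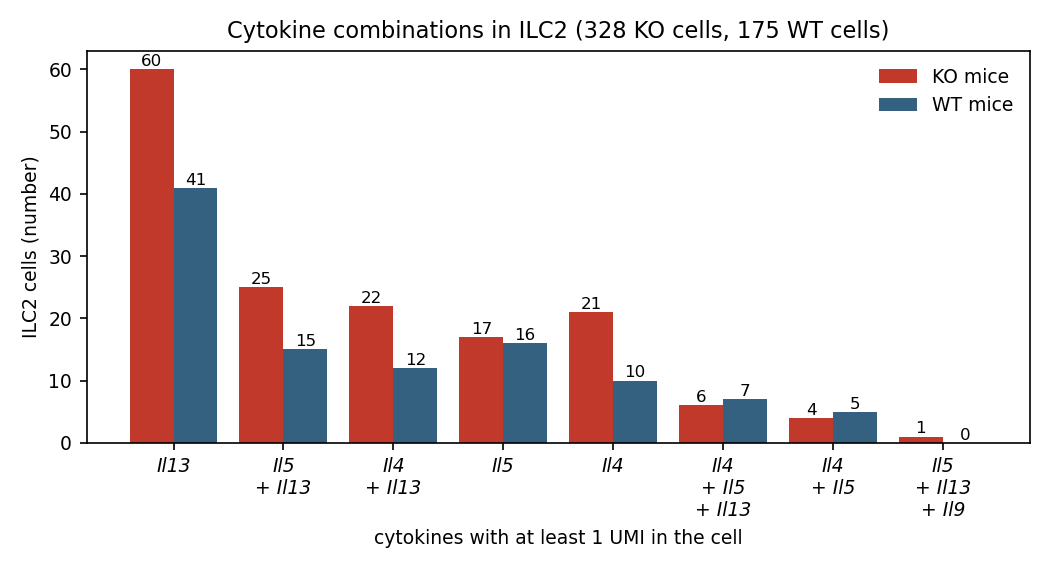
Number of ILC2 (y axis) with each combination of detected cytokines (x axis, at least 1 UMI each), KO-labelled bars left of WT-labelled bars, out of 328 KO-labelled and 175 WT-labelled cells. Il13 alone leads in both, with 60 and 41 cells, and the sets of cells with several cytokines are smaller.

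Il5 was found more often in ILC2 with Il13 than in those without, and the gap was smaller at matched depth. Unthinned, Il5 had a UMI in 28.6% of 189 Il13-positive cells and 13.4% of 314 Il13-negative cells, higher in 7 of 8 mice, where the positive cells also had the higher median depth (3124 against 2742.5 UMIs). At 1000 UMIs per cell the shares were 12.7% of 110 positive cells and 7.37% of 380 negative cells, higher in 4 of 8 mice. Il4 was seen in 24.9% of Il13-positive and 12.7% of Il13-negative cells unthinned, and in 10.9% and 6.32% of them at 1000 UMIs. Gata3 was detected in 83.1% of Il13-positive and 82.2% of Il13-negative cells unthinned, and in 63.6% and 53.2% of them at 1000 UMIs. Il17rb was detected in 37.6% and 38.5% of them unthinned, and in 22.7% and 20.5% at 1000 UMIs. As a difference within each mouse at 1000 UMIs, Gata3 was 10.4 ± 15.5 points and Il17rb 9.23 ± 16.4 points more frequent in the Il13-positive cells (mean and SD over 8 mice), each higher in 6 of 8 mice, with an SD larger than the mean. These are descriptions over cells of 8 mice, with no test.

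Outside ILC2 the cytokines were rare in the T cell class. The other T class cells held 48 Il13 UMIs in 13 cells, 13 Il5 UMIs in 5 cells and 25 Il4 UMIs in 18 cells. Of the Il13 and Il5 there, most was in 6 dividing cells of the subtype named Proliferative, 5 in KO-labelled mice and 1 in WT-labelled mouse 1, which all had Gata3, had no Cd3e UMI and held up to 18 Il13 UMIs each. For Il4 the largest share was in cells named Tregs, the regulatory T cells, with 14 UMIs in 9 cells, 1 of which had a UMI of the regulatory factor Foxp3. B cells (0 of 14700) and epithelium (0 of 23787) held no Il4 UMI, which allows shares of cells with a UMI of up to 0.0204% and 0.0126%, against 2.18% of 412 Tregs with a UMI, whose median depth per mouse was 1788 to 2625 UMIs. These limits say nothing of cells that express Il4 below detection. Il13 in the epithelium came to 15 UMIs in 9 cells and in fibroblasts to 5 UMIs in 4 cells.

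Summed over the whole T cell class, the cytokine levels also carried the share of ILC2 in it, and in such sums fewer cells of a type and less RNA per cell cannot be told apart. ILC2 made up 4.61, 7.36, 6.46 and 19.3% of the class in KO-labelled mice 2, 3, 6 and 7, against 5.36, 7.98, 11.96 and 9.95% in WT-labelled mice 1, 4, 5 and 8 (9.42 ± 6.66% and 8.81 ± 2.82%, SD, n = 4 each; two-sided exact permutation p = 0.914). Mouse 7 had the largest share and mouse 2 the smallest, both KO-labelled. Il13 averaged 124 ± 121 CPM under the KO label and 77.7 ± 33.4 CPM under the WT label, a log2 fold change of 0.69 ± 0.64 (SE), or 0.08 without KO-labelled mouse 3. Il5 averaged 31.0 ± 36.1 CPM under the KO label and 21.3 ± 9.20 CPM under the WT label, a log2 fold change of 0.36 ± 0.64, or −0.76 without KO-labelled mouse 3. Il4 averaged 9.17 ± 5.53 CPM under the KO label and 11.4 ± 4.33 CPM under the WT label, a log2 fold change of −0.12 ± 0.40.
Of the 8 genes, 6 passed the filter on low counts in the T cell class, and 0 of them passed the test (adjusted p = 0.9999 for each in edgeR's quasi-likelihood test), beside 0 of 8706 genes tested (0%). DESeq2 called 0 genes there, and 157 genes had an unadjusted p under 0.05.

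Gata3 reached beyond ILC2 into T cells. Of its 2335 UMIs, 1303 were in ILC2 (55.8%) and 775 in other cells of the T cell class (33.2%, in 545 cells). Over the mice with at least 20 cells of a type, it averaged 826 ± 163 CPM in ILC2 (SD, n = 8), 149 ± 27.1 in Tregs (n = 7), 90.2 ± 28.2 in cells named IELs (n = 6), 84.4 ± 30.05 in ILC1-NK cells (n = 8), 83.0 ± 29.6 in T cells named Inactive (n = 7), 40.6 ± 9.49 in Activated (n = 8) and 30.7 ± 7.81 in Memory T cells (n = 7). Cells named Proliferative reached 20 cells in 2 KO-labelled mice, at 136 and 251 CPM, and 55.1% of all 78 of them had a Gata3 UMI. The lowest ILC2 value, 558 CPM, lay above the highest of each of these other types. Tregs, at 104 to 182 CPM, overlapped the Proliferative cells, and their mean lay above that of IELs by more than either SD, although the ranges overlapped. IELs, ILC1-NK and Inactive T cells lay within each other's spread, and so did Activated and Memory T cells. Inactive T cells were shallow, with medians of 725 to 922 UMIs per cell by mouse. A Gata3 UMI was found in 5.08% of them, against 19.9% of ILC1-NK cells. In the cells that reached 1000 UMIs, thinned to that depth, the shares were 7.81 ± 1.98% of Inactive (n = 7) and 7.11 ± 4.59% of ILC1-NK cells (n = 8). Gata3 was detected in 25.7% of Tregs and 9.77% of Activated T cells, against 0.170% of B cells and 0.101% of epithelial cells. Between KO-labelled and WT-labelled mice the log2 fold change of Gata3 was −0.00 ± 0.24 (SE) in the whole class, with 160 ± 67.8 CPM under the KO label and 163 ± 15.4 CPM under the WT label (SD, n = 4 each). It was −0.03 ± 0.27 in Tregs, −0.04 ± 0.28 in Activated, −0.18 ± 0.36 in Memory and 0.50 ± 0.39 in Inactive T cells. Of the members, 2 were tested in each of these 4 subtypes, Gata3 and Il4ra, and 0 passed, beside 0.0228% of all genes called in Activated and 0% in Memory, Inactive and Tregs.

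Il17rb had a home outside the lymphocytes. Of its 539 UMIs, 330 were in ILC2 (61.2%) and 142 in the epithelium (26.3%), against 42 in the rest of the T cell class (7.79%). Tuft cells, the chemosensory cells that make IL-25, held 51 of the epithelial UMIs. They stood at 65.0 CPM in WT-labelled mouse 5 and 114 CPM in WT-labelled mouse 8, the mice with at least 20 tuft cells, and Il17rb was detected in 25.6% of all 117 tuft cells. The authors named epithelial subtypes only in WT-labelled mice, so tuft cells give no comparison of the labels. The 142 epithelial UMIs cover both labels, so the 51 leave out any tuft cells of KO-labelled mice. In the whole epithelium Il17rb averaged 1.38 ± 0.400 CPM under the KO label and 1.57 ± 0.602 CPM under the WT label (SD, n = 4 each), a log2 fold change of −0.02 ± 0.44 (SE). Over the whole T cell class it averaged 31.5 ± 15.3 CPM under the KO label and 36.3 ± 12.8 CPM under the WT label, a log2 fold change of −0.30 ± 0.35.

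Il4ra, the shared chain of the IL-4 and IL-13 receptors, had most of its UMIs in lymphocytes but was not confined to them. Of 7221 UMIs, 48.9% were in B cells, 21.1% in T class cells other than ILC2, 9.51% in epithelium and 8.67% in fibroblasts. It averaged 210 ± 99.6 CPM in Inactive T cells (n = 7), 201 ± 71.8 in ILC1-NK cells (n = 8), 134 ± 20.6 in mature B cells (n = 8), 130 ± 14.3 in Memory T cells (n = 7), 107 ± 53.6 in Tregs (n = 7), 104 ± 18.8 in Activated T cells (n = 8), 78.3 ± 42.5 in IELs (n = 6), 72.4 ± 17.2 in macrophages (n = 7) and 62.5 ± 38.6 in ILC2 (n = 8; SD over mice throughout). Each of these differed from the next by less than the spread between mice. Below them stood blood vessel endothelium at 53.4 ± 21.1 CPM (n = 6), fibroblasts at 26.6 ± 8.63 (n = 8) and the epithelium at 7.38 ± 1.99 (n = 8). The fibroblast mean covers unequal subtypes, with 177 CPM pooled in the 47 cells named CD90-neg, Sox6-Bmp (30 UMIs, in 36.2% of the cells), against 16.7 CPM in those named CD90-pos. The 1667 cells named CD90-pos, Igfbp3 held 275 of the 626 fibroblast UMIs, at 38.7 CPM pooled. Among types with under 20 cells in every mouse, neutrophils stood at 219 CPM pooled (9 UMIs in all), ILC3 at 209 CPM and dendritic cells at 134 CPM. Plasma cells were lowest of these, at 2.26 ± 1.45 CPM (n = 8), against the 134 CPM of the mature B cells they arise from. In the shallow Inactive T cells, with medians of 725 to 922 UMIs by mouse, 18.5% had an Il4ra UMI, against 35.7% of ILC1-NK cells. In the cells that reached 1000 UMIs, thinned to that depth, the shares were 16.9 ± 5.19% of Inactive (n = 7) and 17.4 ± 9.82% of ILC1-NK cells (n = 8). In ILC2, Il4ra stood at 0, 67.4, 60.1 and 115 CPM in KO-labelled mice 2, 3, 6 and 7, against 64.1, 83.5, 94.7 and 15.3 CPM in WT-labelled mice 1, 4, 5 and 8. The groups overlapped (60.7 ± 47.2 CPM under the KO label and 64.4 ± 35.1 CPM under the WT label, SD, n = 4 each; two-sided exact permutation p = 0.943).

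In the B cell sums Il4ra divided mice 1 to 4 from mice 5 to 8 and not the labels, and the make-up of the class divided them too. It stood at 118, 97.9, 43.4 and 45.5 CPM in KO-labelled mice 2, 3, 6 and 7, against 97.9, 103, 44.1 and 32.3 CPM in WT-labelled mice 1, 4, 5 and 8. Mice 1 to 4 were all above mice 5 to 8 (104 ± 9.65 and 41.3 ± 6.09 CPM, SD, n = 4 each). Within mice 1 to 4 the means were 108 CPM under the KO label and 101 CPM under the WT label, and within mice 5 to 8 they were 44.4 CPM under the KO label and 38.2 CPM under the WT label. Plasma cells, which hold little Il4ra, supplied 14.7 to 34.2% of the B cell UMIs in mice 1 to 4 and 52.7 to 77.6% in mice 5 to 8. In mature B cells alone Il4ra came to 146 ± 8.52 CPM in mice 1 to 4 and 122 ± 22.9 CPM in mice 5 to 8, and the ranges overlapped. By label it averaged 132 ± 25.5 CPM in mature B cells under the KO label and 136 ± 18.1 CPM under the WT label (SD, n = 4 each).
In the T cell class Il4ra likewise stood at 153 ± 19.0 CPM in mice 1 to 4 and 106 ± 4.31 CPM in mice 5 to 8. Inactive T cells, the T cell subtype with the highest mean, made up 36.3 to 57.8% of the class in mice 1 to 4 and 5.19 to 8.25% in mice 5 to 8. Without them Il4ra came to 124 ± 14.9 CPM in mice 1 to 4 and 106 ± 5.49 CPM in mice 5 to 8, and the ranges overlapped, a set of cells chosen after seeing the data. The part of the mitochondrial share in what remains was not tested. The log2 fold changes of Il4ra between the labels were 0.06 ± 0.33 (SE) in B cells, 0.19 ± 0.19 in the T cell class, 0.25 ± 0.32 in ILC1-NK, 0.21 ± 0.21 in Activated, 0.13 ± 0.20 in Memory, 0.02 ± 0.36 in Inactive T cells and −0.34 ± 0.43 in Tregs.

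Il13ra1, which pairs with IL-4Rα to bind IL-13, had most of its UMIs in epithelium and fibroblasts. Of its 5539 UMIs, 4029 were in the epithelium (72.7%) and 1027 in fibroblasts (18.5%), against 2 in ILC2. Among the named epithelial cells of WT-labelled mice, tuft cells were highest, at 471 CPM in mouse 5 and 345 CPM in mouse 8. The 19 tuft cells of mouse 1 held 8 UMIs (151 CPM). Goblet cells, which make mucus, had 175 ± 16.2 CPM (SD, n = 3) and secretory progenitors 84.8 ± 20.9 (n = 4). Enterocytes had 48.1 ± 5.47 CPM, stem-progenitor cells 43.6 ± 3.11 and cells named DCS 41.6 ± 19.2 (n = 4 each), which lay within each other's spread. A UMI of Il13ra1 was found in 51.3% of tuft cells, 47.7% of secretory progenitors, 39.7% of goblet cells, 30.1% of stem-progenitor cells and 11.95% of enterocytes, types that differ in depth. Outside the epithelium, fibroblasts had 42.2 ± 12.6 CPM (n = 8) and macrophages 31.4 ± 13.8 (n = 7). Il13ra1 was detected in 16.2% of macrophages, 13.7% of fibroblasts and 10.6% of epithelial cells. Neutrophils, with under 20 cells in every mouse, stood at 292 CPM pooled (12 UMIs, in 25% of 32 cells).

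Neither receptor chain differed detectably between the labels in the cells that IL-13 addresses. In the epithelium Il13ra1 stood at 25.9, 44.1, 48.8 and 55.1 CPM in KO-labelled mice 2, 3, 6 and 7, against 29.2, 43.9, 56.0 and 49.1 CPM in WT-labelled mice 1, 4, 5 and 8. The groups overlapped throughout, with means of 43.5 ± 12.6 CPM under the KO label and 44.6 ± 11.4 CPM under the WT label (SD, n = 4 each). The log2 fold change was −0.02 ± 0.14 (SE; 95% interval −0.33 to 0.29; adjusted p = 0.9999 in edgeR's quasi-likelihood test). Mice 1 to 4 were all below mice 5 to 8 (35.8 ± 9.59 and 52.3 ± 3.81 CPM), and within mice 1 to 4 the means were 35.0 CPM under the KO label and 36.6 CPM under the WT label. Within mice 5 to 8 they were 52.0 CPM under the KO label and 52.6 CPM under the WT label. The totals behind these CPM include mitochondrial UMIs. Their median epithelial share was 52.2 to 72.9% in mice 1 to 4 and 13.9 to 34.0% in mice 5 to 8. The part of that share in this split was not tested. Il4ra in the epithelium averaged 6.98 ± 2.60 CPM under the KO label and 7.78 ± 1.45 CPM under the WT label, with a log2 fold change of 0.03 ± 0.40 (95% interval −0.87 to 0.93).

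In fibroblasts Il4ra stood at 22.6, 22.7, 22.0 and 23.4 CPM in KO-labelled mice 2, 3, 6 and 7, against 20.7, 24.2, 29.995 and 46.8 CPM in WT-labelled mice 1, 4, 5 and 8. The KO-labelled values were close together inside the wider WT-labelled range, with means of 22.7 ± 0.559 CPM under the KO label and 30.4 ± 11.6 CPM under the WT label (SD, n = 4 each; two-sided exact permutation p = 0.257). The log2 fold change was −0.29 ± 0.20 (SE; 95% interval −0.74 to 0.15; adjusted p = 0.99998 in edgeR's test), and the value of 46.8 CPM in WT-labelled mouse 8 came from 22 UMIs. As a mean over cells of the CPM per cell, Il4ra in fibroblasts came to 21.02 ± 1.21 under the KO label and 29.4 ± 6.21 under the WT label. These groups did not overlap (exact permutation p = 0.029, 1 of 39 such tests and the smallest p possible for 4 against 4 mice). At 1000 UMIs the share with a UMI was 1.99 ± 0.398% (KO label) and 1.87 ± 0.604% (WT label, exact permutation p = 0.743). Cells named CD90-pos, Igfbp3 made up 81 of 785, 104 of 1114, 354 of 853 and 349 of 1109 fibroblasts of KO-labelled mice. They made up 15 of 397, 110 of 832, 490 of 984 and 164 of 188 of WT-labelled mice, in the order above. In them Il4ra averaged 40.3 ± 9.54 CPM (KO label, n = 4) and 45.4 ± 10.3 CPM (WT label, n = 3). The part of this make-up was not tested. Il13ra1 in fibroblasts averaged 42.4 ± 6.52 CPM under the KO label and 41.9 ± 18.1 CPM under the WT label, a log2 fold change of 0.06 ± 0.26. In macrophages the log2 fold changes were −0.06 ± 0.27 for Il4ra and −0.16 ± 0.41 for Il13ra1, over 4 KO-labelled and 3 WT-labelled mice, and in B cells that of Il13ra1 was 0.17 ± 0.34. None of these members passed the test, beside 0% of genes called in B cells, epithelium, fibroblasts and ILC1-NK cells, 0.111% (6 of 5407) in macrophages and 0.146% (5 of 3425) in lymphatics, where 0 members were high enough to be tested. Over the 11 cell sets in which a member could be tested, the genes other than Il9 gave 28 testable fold changes, and 0 passed. Il9 was too low for each of these fits.

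**Figure D5:**
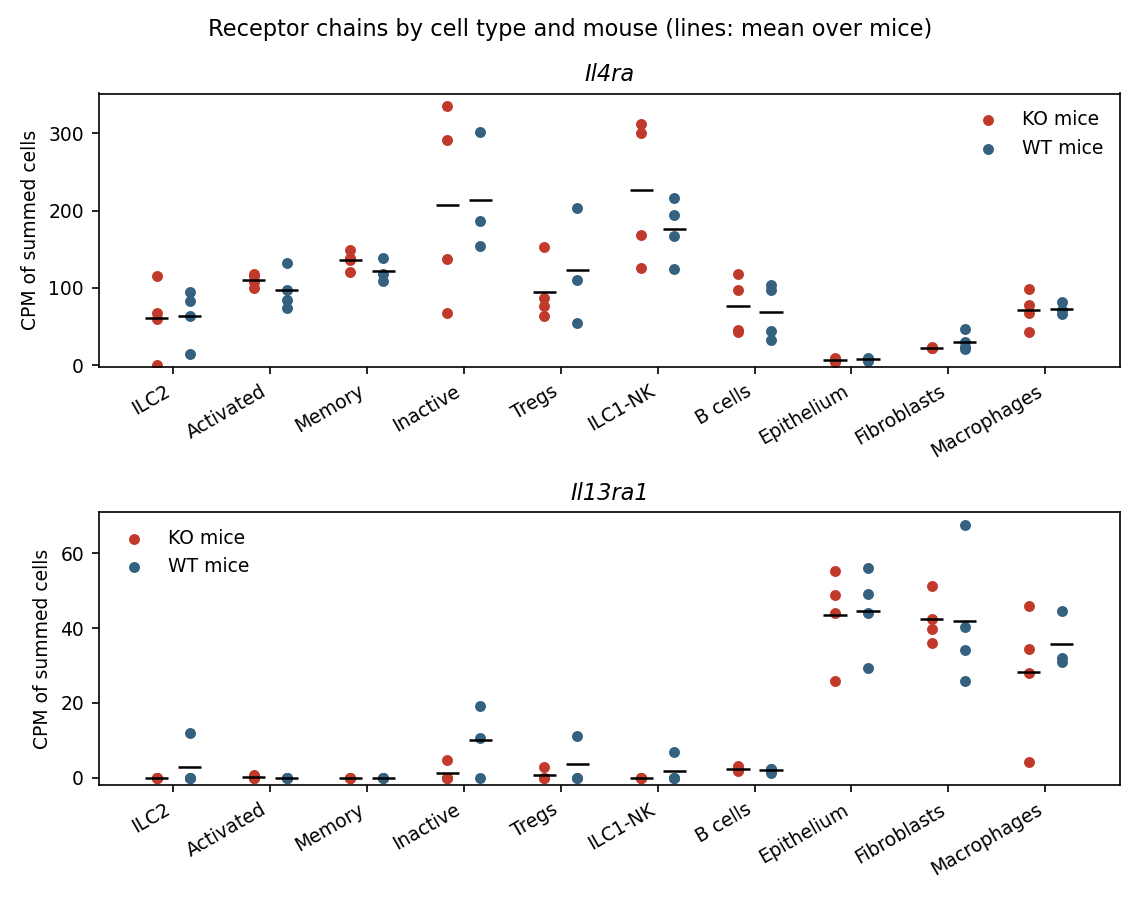
Level of Il4ra (top) and Il13ra1 (bottom) per mouse and cell type, as CPM of the summed cells on linear axes, KO-labelled mice left of WT-labelled mice within each cell type (points: mice, lines: means over mice). The ranges of KO-labelled and WT-labelled mice overlap in the cell types drawn, and Il4ra in B cells falls into a pair of clusters that hold both labels, of mice with at most 34.2% and at least 52.7% of B cell UMIs from plasma cells.

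The genes whose pattern over 14 cell sets was most like that of Il13, Il5, Il17rb or Gata3 were highest in ILC2, by Pearson correlation of the mean log2(CPM + 10) over 12601 genes, a description whose points share libraries. Nearest to Il13 were Il5 (r = 0.999), the chemokine gene Ccl1 (0.999) and the proteases Ctsg, Mcpt8 and Mcpt1 (0.998 each), and nearest to Il5 were Il13, Ccl1, Ctsg, Mcpt1 and Mcpt8 (0.999 each). Mcpt1 and Mcpt8 had UMIs in none of the ILC2 beyond the 10 cells with mast cell and basophil genes. Nearest to Il17rb were Calca (0.994), which encodes the neuropeptide CGRP, Slc18a2 (0.992), B3galt2 (0.986), Stab2 (0.985) and Dach2 (0.979), and nearest to Gata3 were Mns1 (0.941), Xlr4a (0.940), Gm42372 (0.939), Nrip1 (0.931) and the IL-2 receptor gene Il2ra (0.924). The names depend on the pseudocount: with 1 in place of 10 CPM, 4 of the 5 genes stayed for Il5 and for Il13, 3 for Il17rb and 2 for Gata3. Those of Gata3 were then Gm42372, Eya2, Cxcr6, Zap70 and Il2ra, of which Eya2 was highest in ILC1-NK cells and Cxcr6 and Zap70 in IELs.

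The alarmins that act on ILC2 came from other cells. Il33 had a UMI in 33.2% of fibroblasts (143 CPM pooled) and 23.0% of lymphatic cells (107 CPM). Il25 had 26 of its 38 epithelial UMIs in tuft cells (50.9 CPM), which were named only in WT-labelled mice, while the 38 cover both labels. Tslp was low, at 8.34 CPM in fibroblasts. ILC2 held no UMI of any of the 3, and instead the receptors Il1rl1 at 421 CPM, Crlf2 at 88.7 CPM and Il17ra at 47.6 CPM. Il5ra, the IL-5 receptor, was at 8.19 CPM in B cells and 0 in ILC2. Il9r, the IL-9 receptor, was at 92.6 CPM in ILC2, against 9.55 CPM in B cells.

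None of the related genes passed the test in ILC2 (0 of 2162 genes called), and their values follow as counts. Of 8 alarmin and receptor genes 3 were testable, with a median log2 fold change of 0.11 against −0.00 for all genes. Those with the smallest p were Il1rl1 (471 ± 109 CPM under the KO label and 370 ± 126 CPM under the WT label, log2 fold change 0.30 ± 0.27) and Il7r (0.11 ± 0.21). Of 6 receptor subunits 2 were testable, Il9r (0.05 ± 0.28) and Il2rg (−0.01 ± 0.25). Of 13 signalling genes 5 were testable, all with a higher estimate in KO-labelled mice (median 0.84). The kinase gene Jak2 stood at 191 ± 49.2 CPM under the KO label and 97.3 ± 19.1 CPM under the WT label (0.88 ± 0.26, SE; unadjusted p = 0.00479, adjusted p = 0.9998 in edgeR's test). Socs1, a feedback inhibitor of cytokine signalling, stood at 193 ± 129 CPM under the KO label and 89.7 ± 25.7 CPM under the WT label (1.28 ± 0.42).
Of 11 lineage factors 8 were testable (median −0.05, 2 higher and 6 lower in KO-labelled mice), led by Id2 (−0.49 ± 0.21) and Ets1 (0.25 ± 0.20). Of 21 ILC2 surface and secreted genes 13 were testable, 11 with a higher and 2 with a lower estimate in KO-labelled mice (median 0.22). Ramp3, a partner of the CGRP and adrenomedullin receptor, stood at 407 ± 199 CPM under the KO label and 148 ± 58.6 CPM under the WT label (1.43 ± 0.36, adjusted p = 0.854 in edgeR's test), and Ccl1 at 319 ± 264 CPM under the KO label and 85.1 ± 124 CPM under the WT label (1.77 ± 0.72). Of 10 cytokines of other programmes 4 were testable (median 0.12). Il17f stood at 34.2 ± 37.4 CPM under the KO label and 184 ± 180 CPM under the WT label (−3.17 ± 1.05), and Il2 had a log2 fold change of 0.68 ± 0.53. Of 21 IL-4 and IL-13 target genes 0 were testable in ILC2.

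In the T cell class likewise none of the related genes passed the test (0 of 8706 genes called), and the all-gene median log2 fold change was 0.01. The medians were 0.06 for 4 alarmin genes and receptors, led by Crlf2 (−0.19 ± 0.15) and Il1rl1 (0.29 ± 0.34), and −0.01 for 2 receptor subunits, Il2rg (−0.11 ± 0.16) and Il9r (0.09 ± 0.34). They were 0.04 for 13 signalling genes, led by Jak2 (0.24 ± 0.16) and Socs3 (0.23 ± 0.19), and 0.00 for 11 lineage factors, led by Zbtb16 (0.69 ± 0.47) and Bcl11b (−0.20 ± 0.19). For 17 ILC2 surface and secreted genes the median was 0.02, led by Ccl1 (2.06 ± 0.88) and Calca (0.59 ± 0.35). Of the cytokines of other programmes 9 were testable (median −0.20), and Il10, which restrains inflammation, had the smallest p, at 12.4 ± 5.38 CPM under the KO label and 34.9 ± 8.19 CPM under the WT label (−1.63 ± 0.32, SE; adjusted p = 0.741 in edgeR's test), followed by Il17f (−2.30 ± 0.78). All 6 testable genes of the IL-4 and IL-13 target list had a lower estimate in KO-labelled mice (median −1.25), led by the goblet cell genes Fcgbp (9.14 ± 7.43 CPM under the KO label and 24.8 ± 8.58 CPM under the WT label, −1.83 ± 0.51) and Muc2 (24.4 ± 21.3 CPM under the KO label and 57.2 ± 7.81 CPM under the WT label, −1.42 ± 0.51). The 4 epithelial markers summed to 361, 368, 98.1 and 99.6 CPM in the T cell class of KO-labelled mice 2, 3, 6 and 7, against 375, 536, 164 and 192 CPM in WT-labelled mice 1, 4, 5 and 8, and their part in these values was not tested.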

How the data were processed

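Distal colonic mucosa of 8 mice was profiled with 10x Chromium 3′ libraries after removal of annexin V positive dead cells. Raw UMI counts per gene and cell were deposited by the authors, made with Cell Ranger 3.0.2 on the mm10 build, per the submitters' processing notes. The size factors deposited by the authors are a ratio of each cell's total to the geometric mean, and were used to check cell order: 16 of 53080 matched in the order of the cell table, and all 53080 after sorting by mouse and barcode (tolerance 1e-06). Cell types are the authors' deposited names, and cells they named doublets were left out.

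UMIs of each cell set were added up within a mouse (at least 20 cells per mouse and 3 mice per group). Sums were tested with edgeR 4.0.16 (TMM, filterByExpr, quasi-likelihood test, Benjamini-Hochberg over all genes, threshold 0.05) and, as an alternative, DESeq2 1.42.0, in R 4.3.3. Levels and shares per mouse were compared with two-sided exact permutation tests over mice (Python 3.11.15). Of 39 tests of CPM and 39 of shares at 1000 UMIs, 0 had p under 0.05. With 4 against 3 mice the smallest p possible was 0.057, and 3 against 3 mice allowed none under 0.05. Tests in such cell sets could therefore not pass. The p-values of all these tests are unadjusted, although an adjustment over the 8 genes had been planned. Mice are separate animals, the labels give 1 processing day, and sums cover counting error only as far as the UMIs are independent. The edgeR steps were tested on simulated data. All 8 gene IDs matched GENCODE M21, and promoters are from RefSeq. The fibroblast, B cell and epithelial sets follow the authors' classes. The genes followed, the related gene lists and the marker lists were chosen with earlier results of these data known. All 8 genes are named wherever measured, and of each related list the 2 genes with the smallest p in the ILC2 and T cell class sums, with any past the threshold elsewhere. Il17a is named for its level in ILC2, a choice made after seeing the data. ILC3, Proliferative and myofibroblast cells had too few mice for a test. In Memory, Inactive, Tregs and macrophages WT-labelled mouse 8 had too few cells and was left out.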

Additional observations from a re-analysis of the deposited data

Results flagged for a closer look

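Of 120 groups of 4 mice examined, 5 held a mouse far from the other 3 of its group by Dixon's criterion, and chance gives about 1 in 20. Il5 in ILC2 stood at 809 CPM in KO-labelled mouse 3, with 88.7 to 132 CPM in the other KO-labelled mice. Gata3 in Activated T cells stood at 63.6 CPM in KO-labelled mouse 2, with 35.0 to 36.7 CPM in the others. At 1000 UMIs per cell, Gata3 was detected in 9.43% of the 53 Memory T cells of KO-labelled mouse 2, with 2.94 to 3.75% in the others. In B cells at the same depth, Gata3 was detected in 0.139% of 1442 cells of KO-labelled mouse 7. It was detected in 0.0313% of 3196 B cells of WT-labelled mouse 4, with 0 in the other mice of each group. These shares rest on few cells with a UMI.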

How the results depend on the processing

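None of the 28 fold changes, from the genes other than Il9, passed the threshold under any of 374 values from alternatives. The smallest adjusted p of these values was 0.636, and no member was called in 143 alternative fits. Direction reversed in 62 of the 374 values, 49 of 216 with a mouse left out and 13 of 158 others. The cause was not tested. Without a filter on low counts, called genes numbered 14 in the T cell class, 33 in ILC2, 30 in Activated, 20 in Memory, 3 in Inactive, 13 in Tregs, 8 in ILC1-NK, 37 in macrophages and 22 in lymphatics. With the library group as a term Activated had 2, and DESeq2 called 1 in Tregs and 2 in lymphatics. With the CPM averaged over cells 1 exact test had p under 0.05, and with cells thinned to 2000 UMIs 1 did, both for Il4ra in fibroblasts. As the mean over mice of the difference within a mouse, Il5 was 17.3 points more frequent in Il13-positive than in Il13-negative ILC2 unthinned, and 2.91 points at 1000 UMIs.

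With 1 mouse left out, called genes ranged from 0 to 1 in ILC2, 0 to 6 in Activated, 0 to 2 in Memory and in Tregs, 3 to 7 in macrophages and 0 to 8 in lymphatics (0 without KO-labelled mouse 6, 1 without KO-labelled mouse 7 or WT-labelled mouse 5, 2 without KO-labelled mouse 2 and 8 without WT-labelled mouse 8). Log2 fold changes that crossed 0 then ranged, for Gata3, from −0.16 to 0.082 in Activated, −0.25 to 0.0096 in ILC2, −0.44 to 0.049 in Memory, −0.33 to 0.13 in the T cell class and −0.13 to 0.12 in Tregs. For Il13 they ranged from −0.33 to 0.92 in ILC2, for Il5 from −0.91 to 0.83 in ILC2 and −0.76 to 0.77 in the T cell class, and for Il4 from −0.57 to 0.037 in the T cell class. For Il17rb they ranged from −0.32 to 0.23 in epithelium, −0.58 to 0.15 in ILC2 and −0.56 to 0.0095 in the T cell class. For Il13ra1 they ranged from −0.059 to 0.34 in B cells, −0.11 to 0.036 in epithelium, −0.16 to 0.35 in fibroblasts and −0.51 to 0.072 in macrophages. For Il4ra they ranged from −0.12 to 0.26 in B cells, −0.34 to 0.30 in epithelium, −0.0084 to 0.53 in ILC1-NK, −0.23 to 0.29 in Inactive, −0.21 to 0.079 in macrophages and −0.72 to 0.13 in Tregs.

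The other reversals were Gata3 in the T cell class at 0.012 without the filter and 0.093 with doublets counted, Gata3 in Activated at 0.0095 by DESeq2, 0.025 without the filter and 0.036 with the library group, and Gata3 in Tregs at 0.030 with the library group. Il4ra reversed to −0.015 in Inactive by DESeq2 and to 0.036 in macrophages with library totals. In epithelium it reversed to −0.15 with library totals and with the library group, to −0.23 in cells under 20% mitochondrial UMIs and to −0.050 under 50%, a limit chosen after seeing the data. Il13ra1 in epithelium reversed to 0.040 under 20%. No paired analysis was possible because each mouse number belongs to 1 group. ILC2 numbered 20 in KO-labelled mouse 2 and 22 in WT-labelled mouse 8, where Il4 rested on 4 and 8 UMIs.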

Other observations

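Goblet cell genes gave the calls nearest to this programme. In Activated T cells the mucin gene Muc2 was the single gene called, at 12.7, 40.4, 8.57 and 8.32 CPM in KO-labelled mice 2, 3, 6 and 7, against 113, 49.1, 80.8 and 84.7 CPM in WT-labelled mice 1, 4, 5 and 8. These values came from 2 to 11 UMIs per KO-labelled and 15 to 29 UMIs per WT-labelled mouse. The groups did not overlap, and Muc2 fell by 2.52 ± 0.41 on the log2 scale (SE; adjusted p = 0.0288 in edgeR's quasi-likelihood test), a call lost without KO-labelled mouse 6, KO-labelled mouse 7 or WT-labelled mouse 1. Other goblet and epithelial genes were found in the same cells. Fcgbp stood at 0, 7.35, 3.90 and 1.66 CPM in Activated T cells of KO-labelled mice 2, 3, 6 and 7, against 72.9, 24.5, 44.6 and 16.9 CPM in WT-labelled mice 1, 4, 5 and 8, and these groups did not overlap. Clca1 stood at 19.1, 29.4, 7.01 and 1.66 CPM in the KO-labelled mice, against 106, 71.6, 80.8 and 16.9 CPM in the WT-labelled mice. Tff3 stood at 57.2, 58.8, 13.2 and 6.66 CPM in the KO-labelled mice, against 33.2, 98.2, 103 and 16.9 CPM in the WT-labelled mice. For Clca1 and Tff3 the groups overlapped. The 4 epithelial markers, among them Epcam and Krt8, summed to 168 to 369 CPM in the KO-labelled mice, against 217 to 485 CPM in the WT-labelled mice, and those ranges overlapped.

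In KO-labelled mice 6 and 7 Muc2 was also low in other cell types that do not make mucus. In the whole T cell class it stood at 35.7, 48.6, 9.49 and 3.795 CPM in KO-labelled mice 2, 3, 6 and 7, against 54.9, 57.8, 48.6 and 67.4 CPM in WT-labelled mice 1, 4, 5 and 8. In fibroblasts it stood at 15.5, 23.7, 4.67 and 2.40 CPM in the KO-labelled mice, against 21.4, 27.4, 29.3 and 57.4 CPM in the WT-labelled mice. In the epithelium itself it stood at 901, 1777, 1181 and 719.7 CPM in the KO-labelled mice, against 908, 1258, 2456 and 2062 CPM in the WT-labelled mice. The part of free epithelial RNA in the call was not tested.

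In lymphatics the goblet cell gene Tff3 stood at 21.1, 66.1, 8.26 and 6.30 CPM in KO-labelled mice 2, 3, 6 and 7, against 82.5, 1789 and 0 CPM in WT-labelled mice 4, 5 and 8. WT-labelled mouse 5 set the difference, and the groups overlapped (log2 fold change −5.40 ± 0.99, adjusted p = 0.0226 in edgeR's test). Clca1 stood at 10.6, 66.1, 20.7 and 0 CPM in the same KO-labelled mice, against 60.5, 649 and 15.0 CPM in the same WT-labelled mice (−4.14 ± 0.84, adjusted p = 0.0438 in edgeR's test). Without WT-labelled mouse 5 lymphatics had 1 called gene in place of 5. Muc2 at 265 CPM and Fcgbp at 340 CPM were also found in the lymphatics of that mouse.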
